A study of Mus musculus with 4 samples.

Results

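The genes of the DNA replication machinery were followed in 4 lines of LMTK- cells, mouse fibroblasts of L cell origin that lack thymidine kinase. Members were taken by name, as 40 genes for origin licensing, the replicative helicase, DNA polymerases, the clamp loader and chromatin assembly. The platform annotation assigned 83 of 45037 probe sets to 1 of them. These covered 39 of the 18194 genes named in the series, and Chaf1a was not analysed here. Of the 83 probe sets, 74 were at or above the median mean signal of all probe sets, 205.62, and were tested, so that all 39 genes had at least 1 tested probe set. The other 9 belonged to 8 genes that each had a brighter one.

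All 4 lines were stable transfectants of the pCI-neo expression vector. Vector 1 and vector 2 carried it empty, and MTf 4 and MTf 6 were clones that carried it with the cDNA of mouse melanotransferrin, an iron-binding membrane protein of the transferrin family. Each line was hybridised once to an Affymetrix expression array of the mouse genome, so there were 2 arrays per group. Whether the vector lines came from single clones or separate cultures is not in the labels, so a p-value here speaks only for the spread among these 4 arrays, part of which may be technical. The comparison of the series asks which transcripts differ with melanotransferrin. Meltf, its gene, gave signals of 265, 274, 1519 and 1885 in vector 1, vector 2, MTf 4 and MTf 6, and Tk1, the thymidine kinase gene, gave 61.0, 112, 53.2 and 206, below the filter. Fibroblast genes were present, with 9 of 13 markers above the filter, among them Vim, Fn1, Col1a2 and Sparc, while Thy1, Lum, Dcn and Fap were below it. Their summed signal was 222502 to 255329 in the vector lines and 239320 to 299628 in the clones. For other cell types, 4 of 6 macrophage, 2 of 4 epithelial, 1 of 4 endothelial and 0 of 4 melanocyte markers were above the filter. Their summed signals were 1652 to 1962 in the vector lines and 1246 to 2330 in the clones for macrophage markers, 637 to 810 and 808 to 1120 for epithelial, 552 to 650 and 562 to 655 for endothelial, and 400 to 614 and 266 to 593 for melanocyte markers. The ratio of 3' to 5' signal lay between 1.21 and 1.31 for Actb and between 0.669 and 0.691 for Gapdh over the 4 arrays.

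DNA replication starts at origins that are bound by the origin recognition complex, which with Cdc6 and Cdt1 loads the ring of MCM2-7 before S phase. In S phase the kinase Cdc7, Mcm10, Cdc45 and the GINS complex turn that ring into the active helicase, polymerases copy both strands on the sliding clamp PCNA, and chromatin is rebuilt behind the fork. In dividing cells most of these genes are transcribed at the passage from G1 into S phase, where E2F factors act at their promoters. In a culture, fewer cells in S phase and less RNA per cell cannot be told apart by total RNA.

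Replication genes differed between lines of the same group and not past the threshold between the groups. Read through the brightest of its probe sets, each of the 39 genes was higher in vector 1 than in vector 2, where 46.6% of the 10706 genes tested were, and each was higher in MTf 6 than in MTf 4, where 45.6% of all genes were. The median signal ratio over the members was 1.70 for vector 1 over vector 2 (0.981 over all genes) and 1.59 for MTf 6 over MTf 4 (0.965 over all genes). Ratios and log2 differences are of signal plus 32, an offset that damps dim probe sets. In all, 26 members were at least 1.5-fold higher in vector 1 than in vector 2, against 6.42% of all genes, and 25 were so in MTf 6 over MTf 4, against 7.34%. In the other direction it was 0 members, with 7.88% of all genes at least 1.5-fold higher in vector 2 than in vector 1 and 12.3% in MTf 4 than in MTf 6. At 2-fold or more, 3 members passed for the vector lines (1.62% of all genes) and 4 for the clones (1.63%). With 1 array a line these are descriptions of the lines, with no test. Most of the fibroblast markers above the filter ran opposite to the members in both pairs. Of these 9, 7 were lower in vector 1 than in vector 2 and 8 were lower in MTf 6 than in MTf 4. Among all 10706 genes 5721 and 5820 were so. The sum over all 13 fibroblast markers was 222502 in vector 1 and 255329 in vector 2, and 299628 in MTf 4 and 239320 in MTf 6. The sum of the 6 macrophage markers was 1962 and 1652 in vector 1 and vector 2, and 2330 and 1246 in MTf 4 and MTf 6. The part of these differences in the result was not tested.

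**Figure D1:**
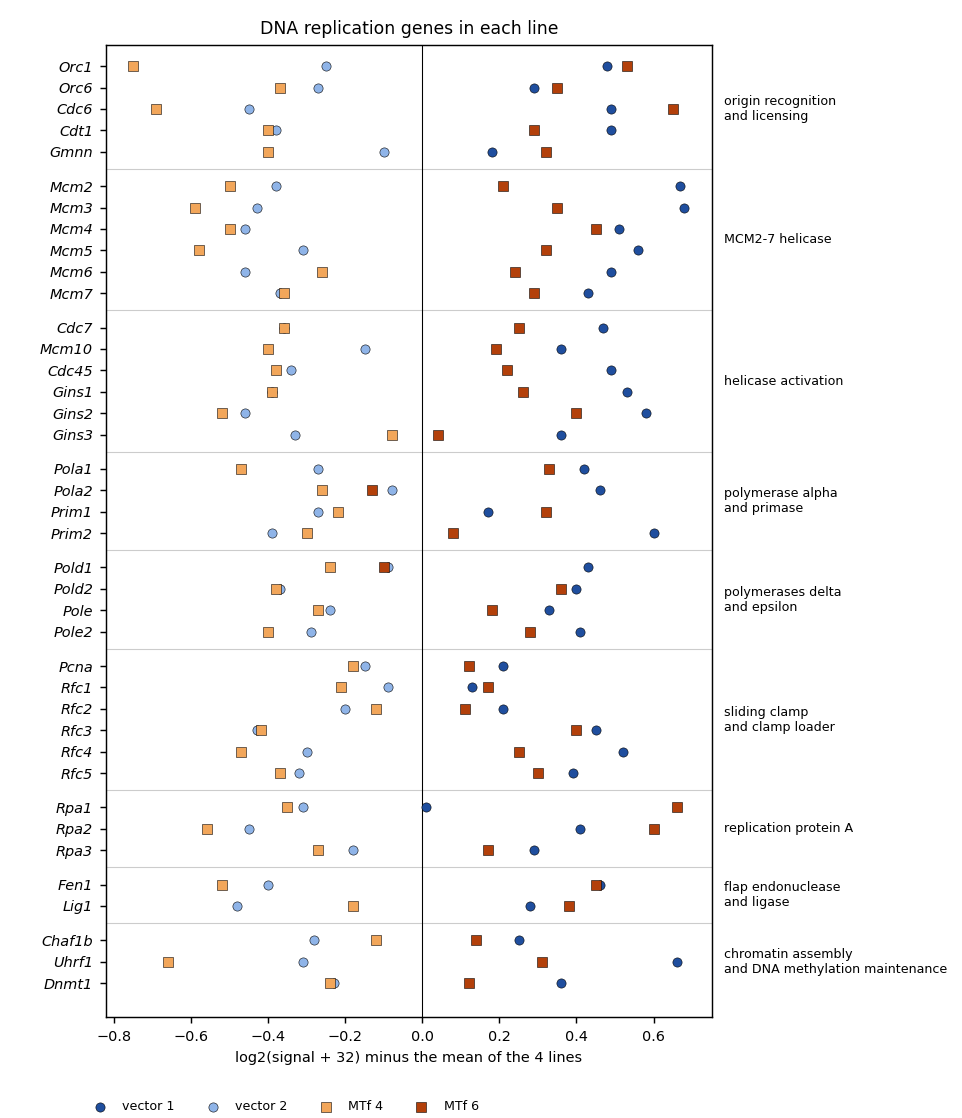
Each row is a replication gene, grouped by complex, and each point is 1 line on 1 array, as log2(signal + 32) minus the mean of the 4 lines. Blue circles are the vector lines and orange squares the MTf clones. The dark circles of vector 1 lie to the right of the light circles of vector 2 in all 39 rows, and the dark squares of MTf 6 to the right of the light squares of MTf 4.

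Across the groups the lines crossed over. Vector 1 was above MTf 4 in all 39 genes (46.6% of all genes), with 29 at least 1.5-fold higher (7.13% of all genes). MTf 6 was above vector 2 in 37 of 39 (45.4% of all genes), with 22 at least 1.5-fold higher (6.34%), and the exceptions were Pola2 and Pold1. By contrast, 0 members differed 1.5-fold between vector 2 and MTf 4 in either direction, where 4.25% of all genes were that much higher in vector 2 and 5.76% in MTf 4. Between vector 1 and MTf 6, 1 member passed in each direction: Pola2 was higher in vector 1 (5.79% of all genes passed) and Rpa1 was higher in MTf 6 (4.6%). The order vector 1, MTf 6, vector 2, MTf 4, from high to low, was seen in 21 of 39 members (53.8%) and in 6.74% of all genes. Vector 1 was the highest line for 30 members and MTf 6 for 9, while MTf 4 was the lowest for 30 and vector 2 for 9. The median of the members stood at 0.43 in vector 1, 0.29 in MTf 6, -0.31 in vector 2 and -0.38 in MTf 4, each as a log2 deviation from the mean of the 4 lines.

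**Figure D2:**
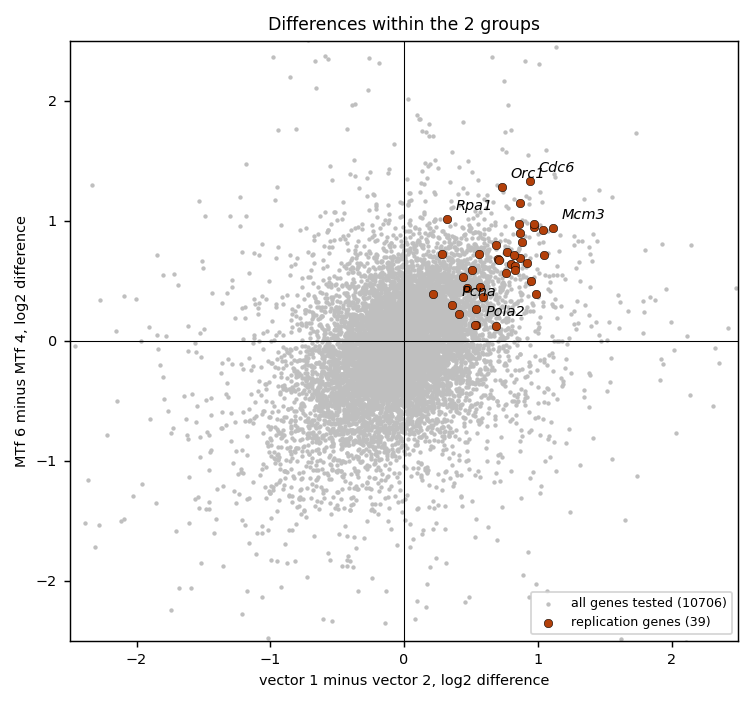
Each point is a gene, with its log2 difference between the 2 vector lines on the horizontal axis and between the 2 MTf clones on the vertical axis. Grey points are the 10706 genes tested, of which 49 lie outside the axes, and orange points are the 39 replication genes, which all lie above 0 on both axes. Pearson's r across genes was 0.47 for the members and 0.32 for all genes, and the genes share the same 4 arrays.

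The promoters of these genes were searched for the E2F-type octamers TTTCCCGC, TTTCGCGC, TTTGCCGC and TTTGGCGC on both strands. RefSeq promoter windows of GRCm38.p6, which run from 250 bases before to 50 bases after a gene start, were at hand for 32 of the 39 genes. At least 1 window held an octamer for 15 of these 32 genes (46.9%), against 2.6% of the 27025 genes with a window. Counted by window it was 36.6% of 41 against 2.26% of 32851. The sets of all genes and all windows take in genes not tested here, and were not matched to the members for base content. In Mcm5 and Mcm6 a pair of matches overlap on opposite strands. A match is a description of letters and not evidence of binding. The 6 stretches below come from the members with the widest range over the 4 lines, at most 1 a complex, whose match ends within 30 bases after the start. They are shown 5' to 3' on the strand of the gene from at least 100 bases before the start, and stop at the start or at a match beyond it. Mcm3 holds a second match farther than 30 bases after its start, which is not shown. Capitals mark the octamers or their reverse complements (GCGGGAAA, GCGCGAAA, GCGGCAAA and GCGCCAAA).
Cdc6, chr11:98907993-98908150, plus strand: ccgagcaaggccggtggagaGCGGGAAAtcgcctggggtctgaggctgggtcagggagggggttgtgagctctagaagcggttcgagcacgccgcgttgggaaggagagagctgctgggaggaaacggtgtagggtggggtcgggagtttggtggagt
Uhrf1, chr17:56304108-56304312, plus strand: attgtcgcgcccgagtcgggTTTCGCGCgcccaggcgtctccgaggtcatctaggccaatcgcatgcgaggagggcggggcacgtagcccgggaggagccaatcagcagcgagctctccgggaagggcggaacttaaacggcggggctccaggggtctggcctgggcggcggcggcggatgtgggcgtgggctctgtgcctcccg
Mcm3, chr1:20820286-20820412, minus strand: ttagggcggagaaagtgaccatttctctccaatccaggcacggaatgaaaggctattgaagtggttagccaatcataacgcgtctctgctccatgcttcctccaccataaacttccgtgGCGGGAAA
Pola1, chrX:93632156-93632313, minus strand: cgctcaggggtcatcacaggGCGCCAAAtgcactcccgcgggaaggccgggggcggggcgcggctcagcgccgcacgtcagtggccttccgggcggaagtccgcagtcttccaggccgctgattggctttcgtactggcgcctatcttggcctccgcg
Rfc3, chr5:151651201-151651308, minus strand: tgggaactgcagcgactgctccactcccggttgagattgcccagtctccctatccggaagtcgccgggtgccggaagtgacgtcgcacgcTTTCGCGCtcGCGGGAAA
Pole2, chr12:69228173-69228290, minus strand: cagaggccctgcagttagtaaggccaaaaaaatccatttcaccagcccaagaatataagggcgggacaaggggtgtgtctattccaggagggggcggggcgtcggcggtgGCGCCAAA
In Cdc6, Uhrf1 and Pola1 the match lay more than 100 bases before the start, and in Mcm3, Rfc3 and Pole2 within 30 bases of it. The 15 genes with an octamer had a median log2 difference of 0.80 between vector 1 and vector 2 and of 0.69 between MTf 6 and MTf 4. For the 17 genes whose windows held none, the medians were 0.56 and 0.62, and for the 7 genes without a window they were 0.92 and 0.65. The values of the 3 sets overlapped and the differences between the sets were not tested. CCAAT boxes, searched as CCAAT on both strands, were in a window of 21 of the 32 genes (65.6%) and of 41.1% of all genes.

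**Figure D3:**
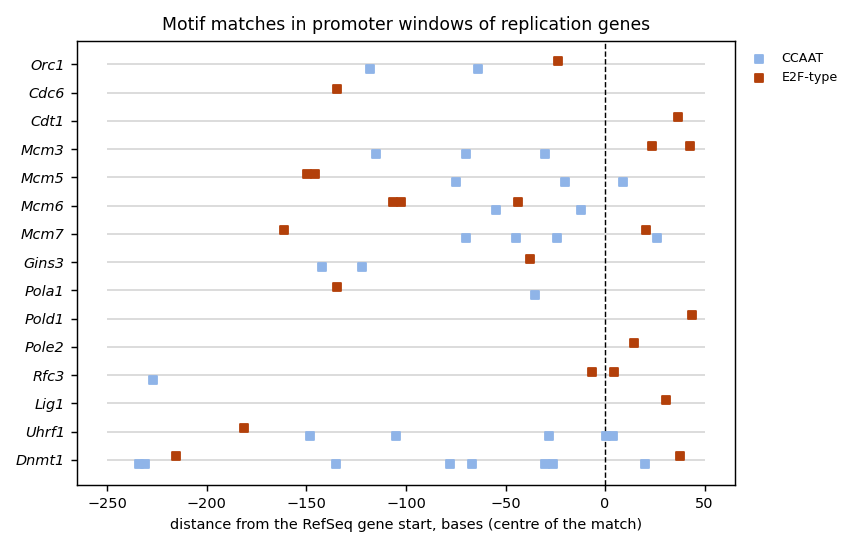
Each row is 1 of the 15 replication genes with an E2F-type octamer, and squares mark the centres of octamers (red) and CCAAT boxes (blue) by distance in bases from the RefSeq gene start (dashed line). Where a gene has several starts its windows are laid over each other, and 9 of the 22 octamer matches reach past the start.

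The licensing genes Cdc6 and Orc1 had the highest ratios between the clones of all 39 members. Cdc6, the ATPase that helps load the helicase, was at 2428 in vector 1 and 1246 in vector 2, against 1052 in MTf 4 and 2701 in MTf 6, so that MTf 6 stood 2.52-fold above MTf 4 and vector 1 stood 1.93-fold above vector 2. Orc1, an ATPase subunit of the origin recognition complex, was at 1159, 687, 476 and 1201 in the same order of lines, and here too MTf 6 and vector 1 were the high lines. A dimmer Orc1 probe set gave 0.30 (log2) between the vector lines and 0.45 between the clones, less than the 0.73 and 1.28 of the brighter one. Orc6, the smallest subunit, was at 4163, 2814, 2606 and 4317. Cdt1, the other loading factor, was at 18025 in vector 1 and 9831 in vector 2, against 9679 in MTf 4 and 15635 in MTf 6. Gmnn, geminin, which binds Cdt1 and stops loading outside G1, was at 6249, 5148, 4175 and 6885, and its vector lines differed by less (1.21-fold) than those of the other 4 genes. In 4 of the 5 genes, all but Cdt1, MTf 6 was above vector 1.

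The 6 subunits of the MCM2-7 ring, the motor of the helicase, were high in the same lines. Their ratios of vector 1 over vector 2 lay between 1.74 and 2.16, and those of MTf 6 over MTf 4 between 1.42 and 1.93. Mcm3 was at 9749 in vector 1 and 4494 in vector 2, against 4026 in MTf 4 and 7744 in MTf 6. Mcm2 was at 6110, 2938, 2705 and 4455, and Mcm4 at 7444, 3776, 3673 and 7122. Vector 1 was the highest line for all 6 subunits. Mcm5 was at 27515, 15021, 12450 and 23281, Mcm6 at 14042, 7252, 8319 and 11787, and Mcm7 at 20625, 11849, 11929 and 18671. For Mcm6 and Mcm7 the lowest line was vector 2 and for the other 4 it was MTf 4, but vector 2 and MTf 4 lay within 1.21-fold of each other in each. All 18 tested probe sets of these genes were higher in vector 1 than in vector 2 and in MTf 6 than in MTf 4. The brightest probe sets of Mcm3, Mcm5, Mcm7 and Fen1 are of types that can also match other transcripts (identifiers ending in _s_at or _x_at). For Mcm5 another probe set, without such an ending, was at 13842, 6527, 6225 and 10703, with the same lines high.

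Genes that activate the helicase followed the same lines, with the brighter Gins3 probe set the exception in the clones. Gins2, of the GINS complex, was at 5769 in vector 1 and 2796 in vector 2, against 2666 in MTf 4 and 5090 in MTf 6, and Gins1, of the same complex, at 2503, 1307, 1305 and 2067. Gins3 was at 811, 491, 588 and 642 by its brightest probe set, so that its clones differed by only 1.09-fold while its vector lines differed by 1.61-fold. A second Gins3 probe set was at 663, 527, 526 and 670. There the clones differed by 1.26-fold and the vector lines by 1.24-fold. Cdc45, which joins GINS and MCM2-7 in the active helicase, was at 2816, 1571, 1529 and 2326 by its brightest probe set. A second, dim Cdc45 probe set ran the other way, at 161, 391, 264 and 191, and was the only 1 of the 74 with vector 2 above vector 1. Cdc7, the kinase that fires origins, was at 1723, 959, 953 and 1476, and Mcm10, which helps start unwinding, at 2672, 1869, 1571 and 2378. In both genes vector 1 was highest and MTf 4 lowest.

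Among the polymerases, Pola2 and Pold1 stood apart because only vector 1 was high. Pola2, the accessory subunit of polymerase alpha, was at 1938 in vector 1 and 1323 in vector 2, against 1163 in MTf 4 and 1278 in MTf 6. Pold1, the catalytic subunit of polymerase delta, was at 3410, 2360, 2127 and 2338. By the brightest probe sets, both clones were below both vector lines in these 2 of the 39 genes, where 12.6% of all genes were. In MTf 6 the level was close to that of vector 2 (0.967-fold and 0.991-fold). Pold1 had a second probe set, whose identifier ends in _x_at, at 2445, 1525, 1946 and 2744, where the groups overlapped and MTf 6 was highest. Pola1, the catalytic subunit of polymerase alpha, was at 4311, 2669, 2316 and 4052, and followed the common order. Prim1, the catalytic primase subunit, was at 6159, 4545, 4702 and 6822, with MTf 6 highest, and Prim2, the large subunit, at 1468, 722, 768 and 1013, with vector 1 highest. A second Prim2 probe set was at 906, 567, 398 and 862, where vector 1 stood only 1.05-fold above MTf 6. Prim1 lies on chromosome 10, whose 513 tested genes had a median log2 difference of 0.33 between vector 1 and vector 2, beside the 0.44 of Prim1 itself. The part of that shift in the value of Prim1 was not tested. Pold2, the second subunit of polymerase delta, was at 5685, 3330, 3295 and 5537. Pole and Pole2, of polymerase epsilon, had ratios of vector 1 over vector 2 of 1.48 and 1.62, and of MTf 6 over MTf 4 of 1.37 and 1.60.

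By the brightest probe sets, the sliding clamp and the clamp loader held the members with the narrowest ranges. Pcna, the clamp, was at 42240 in vector 1 and 32853 in vector 2, against 32258 in MTf 4 and 39713 in MTf 6, a range of 0.39 (log2). Rfc1, the large loader subunit, was at 2503, 2137, 1964 and 2576, also a range of 0.39, and Rfc2 at 4112, 3077, 3262 and 3816, a range of 0.41. The dimmer tested probe sets had ranges of 0.35 and 0.68 for Rfc1 and of 0.95 and 0.77 for Rfc2. Over the 39 members the median range was 0.86, against 0.49 over all genes. The other 3 loader subunits ranged more widely. Rfc3 was at 4947, 2676, 2706 and 4794, Rfc4 at 6072, 3420, 3039 and 5008, and Rfc5 at 5024, 3056, 2960 and 4722. A dim Rfc2 probe set was lower in MTf 6 than in MTf 4 (-0.28), and with the dim Cdc45 probe set it was 1 of 2 among the 74 to be so.

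Of replication protein A, which coats single-stranded DNA, the larger subunits were highest in MTf 6 and the small one in vector 1. Rpa1, the large subunit, was at 22679 in vector 1 and 18169 in vector 2, against 17692 in MTf 4 and 35655 in MTf 6. MTf 6 was thus 2.01-fold above MTf 4, while vector 1 was 1.25-fold above vector 2, and the second Rpa1 probe set gave 9338, 6995, 7188 and 15736 with the same line far above the rest. Rpa2, the middle subunit, was at 3915, 2133, 1978 and 4443, and Rpa3, the small subunit, at 7282, 5237, 4922 and 6691. Rpa2 and Orc1 lie on chromosome 4, whose 643 tested genes had a median of 0.27 (log2) between MTf 6 and MTf 4, beside 1.15 for Rpa2 and 1.28 for Orc1. Its part in these values was not tested. Rpa1 lies on chromosome 11, where that median was -0.08 over 904 tested genes, beside 1.01 for Rpa1. Differences along that chromosome were not tested.

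Genes that finish the lagging strand had the same lines high as the helicase. Fen1, the flap endonuclease, was at 5387 in vector 1 and 2958 in vector 2, against 2719 in MTf 4 and 5357 in MTf 6. Lig1, DNA ligase I, was at 2219, 1296, 1603 and 2385, so that MTf 6 was highest and vector 2 lowest.

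Of the chromatin genes, Uhrf1 had the widest range and Chaf1b one of the narrower ones. Uhrf1, which brings the maintenance methyltransferase to newly copied DNA, was at 7942 in vector 1 and 4048 in vector 2, against 3162 in MTf 4 and 6231 in MTf 6, a range of 1.32. Chaf1b, of the chromatin assembly factor, was at 2605, 1788, 2010 and 2410, a range of 0.54. Dnmt1, the methyltransferase itself, was at 4401, 2906, 2891 and 3720 by its brightest probe set. Its 3 tested probe sets gave 0.36 to 1.78 (log2) for MTf 6 minus MTf 4, so the size of that difference depended on the probe set, but not its direction.

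**Figure D4:**
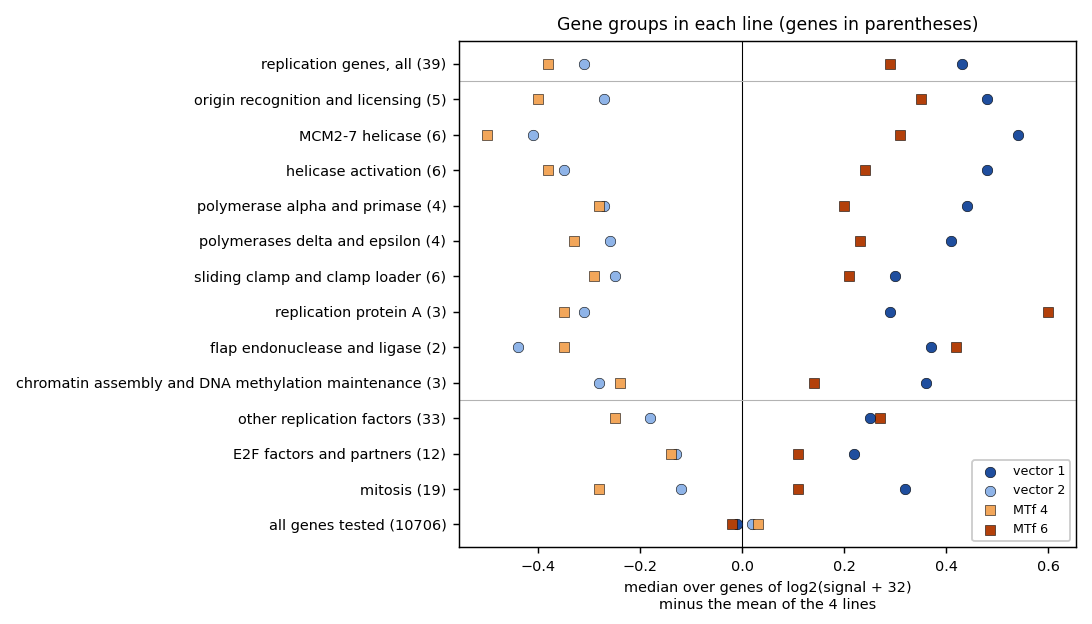
Each row is a gene group and each point the median over its genes in 1 line, as log2(signal + 32) minus the mean of the 4 lines; the number of genes is in parentheses. Circles are vector lines and squares MTf clones. In all 9 complexes vector 1 and MTf 6 are above 0 and vector 2 and MTf 4 below it, and all genes tested lie between -0.02 and 0.03.

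Probe sets of 1 gene mostly ran the same way. Among the 25 genes with 2 or more tested probe sets, all of them had the same sign in 24 genes for vector 1 minus vector 2 and in 23 for MTf 6 minus MTf 4. For MTf minus vector it was 19. Counted singly, 73 of 74 tested probe sets were higher in vector 1 than in vector 2 (48.4% of all probe sets tested) and 72 in MTf 6 than in MTf 4 (45.5%).

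Between the MTf clones and the vector lines, 0 of the 74 probe sets passed limma at an adjusted p of 0.05, where 1 of all 22519 (0.00444%) did. At an unadjusted 0.05 it was also 0, against 1.81% of all probe sets, and the smallest unadjusted p of a member was 0.116. The smallest adjusted p of a member was 1.00. Meltf itself, with a log2 difference of 2.52, did not pass limma either (adjusted p 0.0911). On simulated data the fit recovered only 4.19% of changes of 1 (log2). The count of 0 among the members thus says little about changes of that size. Of the 39 genes 34 were lower in the mean of the clones (51.0% of all genes) and 5 higher, namely Rpa1, Lig1, Prim1, Rpa2 and Chaf1b, with a median log2 difference of -0.08 over the members and 0.00 over all genes. By complex the median lay between -0.18 for polymerase alpha and primase and 0.07 for flap endonuclease and ligase. By the brightest probe sets, all members measured of the licensing, MCM2-7, helicase activation, polymerase delta and epsilon, and clamp groups were below 0. Among their other tested probe sets, those above 0 were of Cdt1 (0.07), Gins3 (0.01), Pold1 (0.25) and Rfc1 (0.09 and 0.13). Through the brightest probe sets, the values of clones and vector lines overlapped for 37 of 39 members. Pola2 and Pold1 were the exceptions on the low side, and 0 members had both clones above both vector lines, where 11.8% of all genes did. Counted singly, 5 of the 74 tested probe sets had both clones below both vector lines, as did 3069 of all 22519. Those beyond Pola2 and Pold1 were dimmer ones of Mcm3, Mcm10 and Rfc2, and the second Pold1 probe set overlapped. The mean signal of Pola2 was 1630 ± 435 (SD, n = 2) with the empty vector and 1221 ± 81.7 (SD, n = 2) with melanotransferrin, a log2 difference of -0.38 (95% interval -0.96 to 0.19). Uhrf1 was at 4697 ± 2170 (SD, n = 2) against 5995 ± 2753 (SD, n = 2), a difference of -0.35 (95% interval -1.28 to 0.58). Rpa1 had the highest difference, 0.31 (95% interval -0.43 to 1.04), at 26673 ± 12702 (SD, n = 2) against 20424 ± 3189 (SD, n = 2). Pcna had the narrowest interval, -0.50 to 0.38 around -0.06, so that a change of its signal by 2-fold in either direction lay outside it. For Cdc6 the interval ran from -1.14 to 1.05 and did not leave out a 2-fold change. The sign of the group difference changed with the line left out. Without vector 1 the median was 0.28, with 37 of 39 genes higher in the clones, and without MTf 4 it was 0.21, with 36 higher. Without vector 2 it was -0.48, with 1 gene higher, and without MTf 6 it was -0.42, with 0 higher.

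**Figure D5:**
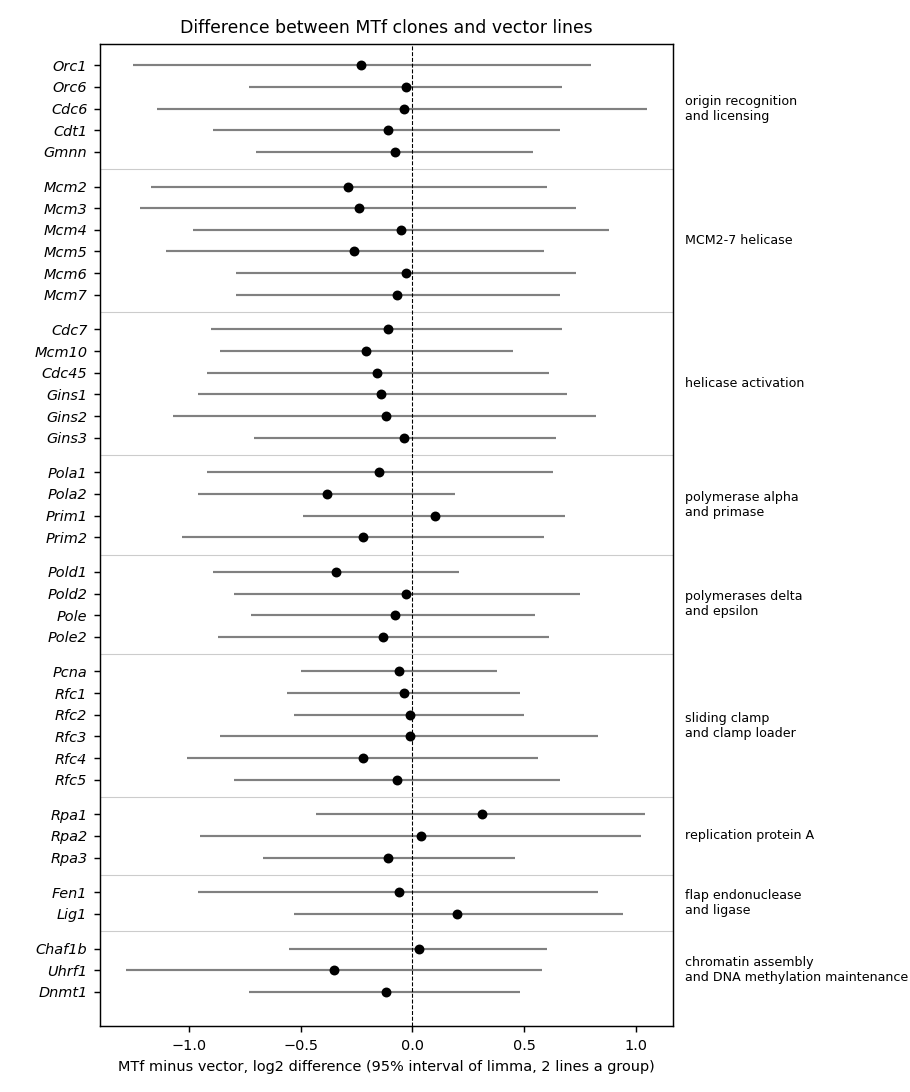
Each row is a replication gene, the point is its log2 difference, MTf clones minus vector lines, and the bar the 95% interval of limma with 2 lines a group. Every bar crosses the dashed line at 0, and points lie between -0.38 for Pola2 and 0.31 for Rpa1.

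Other genes of the pathway showed the same lines high, by less. Of 34 listed replication factors outside the 39 members, 33 were measured above the filter, and 28 were higher in vector 1 than in vector 2 and 30 in MTf 6 than in MTf 4, with median ratios of 1.38 and 1.43. Between the groups 19 of them were above 0 and 14 below, around a median of 0.02 (log2), and 0 passed limma. Recql4, a helicase of origin firing, was at 1295 in vector 1 and 695 in vector 2, against 571 in MTf 4 and 767 in MTf 6, and Dtl, the PCNA-dependent ubiquitin ligase adaptor that removes Cdt1, at 2835, 1394, 1314 and 1962. Atad5, which unloads the clamp, had a log2 difference of -0.28 between the groups, and Mcm8, an MCM relative of DNA repair, of 0.21.

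The E2F factors and their pocket protein partners were mixed. Of 13 listed genes 12 were above the filter, of which 9 were higher in vector 1 than in vector 2 and 8 in MTf 6 than in MTf 4, and 0 passed limma between the groups. E2f1, an activator, was at 2461 in vector 1 and 1613 in vector 2, against 1851 in MTf 4 and 2874 in MTf 6, so its 2 high lines were those of most members. E2f8, a repressor, was at 1425, 1026, 787 and 1444, and Rbl1, the pocket protein p107, at 5514, 3563, 3174 and 4173. E2f5 differed from them, at 2543, 2245, 1987 and 1505, with both clones below both vector lines.

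Genes of mitosis were higher in the same line of each pair, with smaller ratios, and MTf 6 stood less high than vector 1. Their median deviation from the mean of the 4 lines (log2) was 0.32 in vector 1 and 0.11 in MTf 6. In vector 2 it was -0.12 and in MTf 4 -0.28. Of 19 measured genes of 20, 18 were higher in vector 1 than in vector 2 and 18 in MTf 6 than in MTf 4, with median ratios of 1.32 and 1.31, and 0 passed limma between the groups. In the mean of the clones 17 of the 19 were lower, with a median log2 difference of -0.14. The 4 with the smallest unadjusted p were Tpx2, a spindle assembly factor, with a log2 difference of -0.69, Bub1b, a checkpoint kinase, with -0.44, Cenpf, a kinetochore protein, with -0.40, and Kif23, a motor of cytokinesis, with -0.31. In MTf 6 and vector 2, Tpx2 was at 4336 and 3969 and Cenpf at 3396 and 3083. Bub1b was at 2504 and 2499 in these lines, and Kif23 at 1577 and 2008. The adjusted p of each by limma was 1.00. Promoter windows of the mitosis genes and of the other lists were searched for the same letters as those of the members. An E2F-type octamer was in a window of 1 of 18 mitosis genes (5.56%), and a CCAAT box in 17 (94.4%). For the other replication factors it was 10 of 29 (34.5%) and 14 (48.3%). Among the E2F factors and partners, whose levels were mixed across the lines, 5 of 10 genes had an octamer and 4 a CCAAT box. Whether the sets differ in these shares was not tested.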

How the data were processed

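Total RNA of 4 stably transfected lines was hybridised to 1 array each. The authors deposited 1 linear intensity per probe set and array. The submitters' processing notes name GCOS 1.3, with settings that are not stated. The 2%-trimmed mean was 1000.01 on every array, so values were used as deposited, and a signal is relative to the rest of its array. Of the 45037 probe sets that are not controls, those with a mean signal of at least 205.62, the median, were kept, which gave 22519 probe sets and 10706 genes with 1 symbol in the platform annotation. Groups were compared with limma 3.58.1 (R 4.3.3) on log2(signal + 32), lmFit and eBayes with a trend, with Benjamini-Hochberg adjustment over all probe sets tested. The smallest two-sided exact permutation p with 2 lines against 2 is 0.333, and the number of arrays limits the precision. The fit was tested on simulated data, where it recovered 4.19% of changes of 1 (log2), 64% of 2 and 84.9% of 3. Of unchanged probe sets it called 0.0229%.

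All members were named, each by the brightest of its probe sets, with 4 genes of each other pathway list by smallest p, Meltf and Tk1. Members, lists and the promoter search were chosen with earlier results of these data known. Promoter windows are from RefSeq, GRCm38.p6. No set test was made, and differences between single lines were not tested. Alternatives covered the offset, the scaling, the filter, the choice of probe sets, the variance trend and each array left out.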

Additional observations from a re-analysis of the deposited data

How the results depend on the processing

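The number of member probe sets called between the groups was 0 under every alternative run, including each array left out, and at an unadjusted p of 0.05 it was 0 with all arrays and 3, 8, 0 and 5 without MTf 4, MTf 6, vector 1 and vector 2 (limma). Over all probe sets it was 1, but 0 with no filter and 0 with no trend, and between 1 and 21 with 1 array left out, where a group of 1 line is assumed to vary like the other group. The median over the members, -0.08, lay between -0.11 and -0.08 under the other offsets, quantile normalization, the filters and the choice of probe sets. With 1 array left out it lay between -0.48 and 0.28, and 32 of 39 genes changed sign without vector 1, 31 without MTf 4, 5 without MTf 6 and 4 without vector 2. The number of members at least 1.5-fold higher in vector 1 than in vector 2 stayed between 23 and 26, and in MTf 6 over MTf 4 between 22 and 25, under the 7 alternatives that apply. With the mean of all tested probe sets of a gene, 38 in place of 39 members were higher in vector 1 than in vector 2, because of the dim Cdc45 probe set. No paired analysis was possible because the labels give the groups different numbers (1 and 2 against 4 and 6). For dim probe sets the offset of 32 understates differences, and the signal over background is unknown without detection calls.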
